A study of Mus musculus with 2 samples.

Results

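Immunoglobulin and plasma cell genes were followed in single-cell RNA-seq of MC38 tumors. The 9 genes were Igkc, Ighm, Igha, Ighg1, Ighg2b, Ighg2c, Jchain, Mzb1 and Cd79a. They were taken by symbol, and all 9 were found among the 32285 features of the deposited matrices. Earlier sums of these genes in the same data were known when they were picked, so the levels below are a description and carry no test.

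MC38 is a colon adenocarcinoma line of C57BL/6 mice, grown here as subcutaneous tumors in male or female C57BL/6 mice. The comparison asked how tumor cells and infiltrating cells respond to MSA-2, a small molecule that activates STING, the adaptor of cytosolic DNA sensing. The untreated library came from tumors given vehicle, which the methods call saline and the series record saline with DMSO. The other library came from tumors injected with MSA-2 every 3 days for 3 doses, the last on day 6, and both were collected on day 7. Tumors of 3 mice were pooled into 1 library per condition, so MSA-2 and the library cannot be told apart. The mice were 6 to 8 weeks old, and the methods say that cells were sorted without naming a gate.

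The untreated library held 14386 barcodes with 198135335 unique molecular identifiers (UMIs, counts of captured RNA molecules), and the MSA-2 library held 14617 barcodes with 204387165 UMIs. The median barcode had 8372 and 8661 UMIs, respectively. The methods call the cells immune, the sample labels call them tumor cells, and the clusters held both kinds. The libraries shared 53 barcode sequences, and none of the immunoglobulin-rich barcodes described here was among them. Intervals are exact at 95% and cover counting error only, and the spread between tumors is unknown.

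An antibody is built of paired heavy and light chains, each with a variable region, encoded by joined V, D and J segments, and a constant region. B cells carry antibody as a receptor that signals through Cd79a and Cd79b, and their first isotypes are IgM and IgD. Plasma cells shut down much of the B cell program and devote a large part of their RNA to secreted antibody, so a single plasma cell can hold very many immunoglobulin molecules while its free RNA reaches many other droplets. Igkc encodes the kappa light chain constant region, Ighm, Igha, Ighg1, Ighg2b and Ighg2c encode the heavy chain constant regions of IgM, IgA, IgG1, IgG2b and IgG2c, Jchain encodes the chain that joins IgM and IgA into polymers, and Mzb1 encodes a chaperone of the endoplasmic reticulum that helps to assemble antibody.

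The heavy chain genes are paralogs that lie side by side on the minus strand of chromosome 12, and every isotype call below rests on reads that tell them apart. In the GENCODE M21 annotation of GRCm38, Ighm spans chr12:113418558-113422730, Ighg2b chr12:113302965-113307933, Ighg2c chr12:113285325-113288932 and Igha chr12:113254830-113260236. Igkc lies on the plus strand at chr6:70726435-70726966, wholly within the long noncoding gene Gm30211 of the same strand, to which its reads could be assigned in part. The last 120 coding bases of the secreted IgG2b and IgG2c heavy chains are shown 5′ to 3′ to let these 2 isotypes be compared. Capitals mark the bases that differ (Ighg2b at chr12:113306392-113306511 and Ighg2c at chr12:113287392-113287511, minus strand).
Ighg2b: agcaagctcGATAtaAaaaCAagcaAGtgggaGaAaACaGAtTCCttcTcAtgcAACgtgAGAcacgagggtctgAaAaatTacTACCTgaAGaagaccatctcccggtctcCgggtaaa
Ighg2c: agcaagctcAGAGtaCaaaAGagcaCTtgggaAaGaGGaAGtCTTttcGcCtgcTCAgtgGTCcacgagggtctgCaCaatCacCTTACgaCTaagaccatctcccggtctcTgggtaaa
In this window 83 of the 120 bases were the same (69.2%), and the longest run in common was 19 bases. Over the whole coding sequence the longest run in common was 78 bases. A read wholly inside such a stretch could not be assigned to either gene alone, but read lengths and positions were not examined.

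Summed over all barcodes, immunoglobulin RNA was lower in the MSA-2 library, and the size of the difference depended on the isotype. The constant-region genes together gave 25041 UMIs in untreated tumors and 8104 in MSA-2 tumors. As counts per 1000000 UMIs of the library (CPM), these were 126 and 39.7, a log2 ratio of -1.67 (95% interval -1.71 to -1.64). Of the 8 members with at least 50 UMIs, 5 had a log2 ratio of -1 or lower after 1 CPM was added to each level. Over all features with at least 50 UMIs, 3.27% passed that limit. None of the 8 members had a ratio of 1 or higher (3.33% of all features), and the median over members was -1.23 beside 0.00318 over all features. The choice of members used this contrast, and nothing is read from these counts.

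Igkc supplied most of the RNA, with 19036 UMIs in untreated tumors and 5896 after MSA-2, a log2 ratio of -1.74 (-1.78 to -1.69). Ighm had 2248 and 702 UMIs, a log2 ratio of -1.72 (-1.85 to -1.60). Igha had 989 and 26 UMIs, a log2 ratio of -5.29 (-5.92 to -4.73). The IgA heavy chain was thus close to absent from the MSA-2 library. Without called doublets and barcodes failing the cell filter, the ratio was -2.65 for Igkc, -3.03 for Ighm and -3.19 for Igha. This step left out most of the barcodes rich in immunoglobulin, but unevenly. Of those defined below as immunoglobulin-high, it kept 1 in the untreated library and 0 in the MSA-2 library. The kept barcode had 4159 Igkc and 2 Ighm UMIs, and 48.0% of the constant-region UMIs left in the untreated library. Over barcodes with under 20 constant-region UMIs, the Igkc ratio per barcode was -1.08.

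The IgG genes differed among themselves. Ighg2c had 2205 UMIs in untreated tumors and 1016 after MSA-2, a log2 ratio of -1.16 (-1.27 to -1.05). It was -2.67 (-2.91 to -2.44) without called doublets and barcodes failing the filter, where the kept untreated barcode had 725 Ighg2c UMIs. Over barcodes with under 20 constant-region UMIs, the Ighg2c ratio per barcode was -0.58. Ighg2b had 383 and 388 UMIs, a log2 ratio of -0.03 (-0.23 to 0.18), so its level was nearly equal in both libraries. Ighg1 had 0 UMIs in each, and a floor of 3 counts corresponds to 0.0151 and 0.0147 CPM. Of the constant-region genes that are no members, Ighg3 had 2 and 0 UMIs, Ighe 1 and 0, and Ighd 19 and 3. The lambda light chain genes Iglc1, Iglc2 and Iglc3 had 31, 81 and 46 UMIs in untreated tumors and 46, 18 and 9 after MSA-2, far below Igkc.

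Among the genes of antibody assembly and signaling, Jchain had 1023 UMIs in untreated tumors and 259 after MSA-2, a log2 ratio of -2.03 (-2.23 to -1.83). Without the barcode with the most constant-region UMIs in each library, the Jchain ratio was -1.22 (-1.48 to -0.97). Mzb1 had 189 and 123 UMIs, a log2 ratio of -0.66 (-1.0 to -0.33), and overlaps Spata24 on the same strand. Cd79a had 106 and 64 UMIs, a log2 ratio of -0.77 (-1.24 to -0.31). These differences lay beyond counting error over all barcodes. Without called doublets and barcodes failing the cell filter, the Cd79a ratio was -0.45 (-0.96 to 0.06), which was within it. A few barcodes held most of several of the sums, as follows.

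Immunoglobulin-high barcodes, defined by at least 50 constant-region UMIs that make up at least 5% of the barcode's UMIs, numbered 6 of 14386 in untreated tumors (0.0417%, 0.0153 to 0.0908%). In MSA-2 tumors they numbered 4 of 14617 (0.0274%, 0.00746 to 0.0701%), a log2 ratio of -0.61 (-2.88 to 1.47) that was within counting error. The 6 untreated barcodes held 19240 of the 25041 constant-region UMIs (76.8%), and the 4 MSA-2 barcodes held 4983 of 8104 (61.5%). For Igkc, 50% of all UMIs lay in 2 barcodes without treatment and in 3 barcodes after MSA-2. The intervals of the sums above count molecules, and they say nothing of how few cells those molecules came from.

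The doublet caller marked 4 of the 6 untreated and all 4 MSA-2 barcodes as doublets, 1 untreated barcode failed the cell filter, and the remaining one clustered with fibroblast-like cells. Their median UMI count was 11486.5 without treatment and 7745.5 after MSA-2, and that of the other barcodes 8371 and 8661. The threshold fell between an untreated barcode of 168 constant-region UMIs at 20.4% and one of 375 UMIs at 2.67%. In MSA-2 tumors it fell between a barcode of 113 UMIs at 6.26% and one of 1327 UMIs at 3.78%. The last of these had 35127 UMIs in all and stood outside only by its percentage.

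Each of these barcodes carried a single dominant isotype. The untreated barcode with the most constant-region UMIs had 6165 among its 12079 UMIs (51.0%), with 5399 Igkc, 755 Igha, 616 Jchain and 25 Mzb1 UMIs. Igha made up 99.5% of its heavy chain UMIs, so this was an IgA barcode. It alone held 76.3% of the Igha UMIs of the untreated library, and in MSA-2 tumors the 26 Igha UMIs lay in 26 different barcodes.

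The second untreated barcode had 5910 constant-region UMIs (54.2%), with 4828 Igkc and 1079 Ighg2c UMIs, and all its heavy chain UMIs were Ighg2c. The third had 4908 (15.8%), with 4159 Igkc and 725 Ighg2c UMIs, beside 1185 UMIs of fibroblast markers. Both were IgG2c barcodes. The fourth had 1547 (7.64%), with 220 Ighg2b UMIs (92.8% of its heavy chain UMIs), 13 Ighg2c, 69 Mzb1 and only 2 Jchain UMIs. The fifth had 542 (17.3%), with 105 Ighg2b and 5 Ighm UMIs, and was also an IgG2b barcode. The smallest, with 825 UMIs in all, had 130 Igkc and 38 Ighg2c UMIs.

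In the MSA-2 library, the barcode with the most constant-region UMIs had 2390 (8.40%), with 1902 Igkc and 466 Ighg2c UMIs. The next had 1296 (32.9%), with 969 Igkc and 322 Ighg2c UMIs. Another had 1184 (10.2%), with 843 Igkc UMIs, 319 Ighg2b UMIs and no other heavy chain. The fourth had 72 Igkc and 39 Ighg2c UMIs. No MSA-2 barcode was dominated by Igha. The barcode of 1327 constant-region UMIs just outside the threshold was dominated by Ighm, with 410 Ighm, 901 Igkc, 77 Jchain and 26 Mzb1 UMIs, and it held 58.4% of all Ighm UMIs of the MSA-2 library. No such IgM barcode was seen in untreated tumors, where the highest Ighm count was 10.

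**Figure D1:**
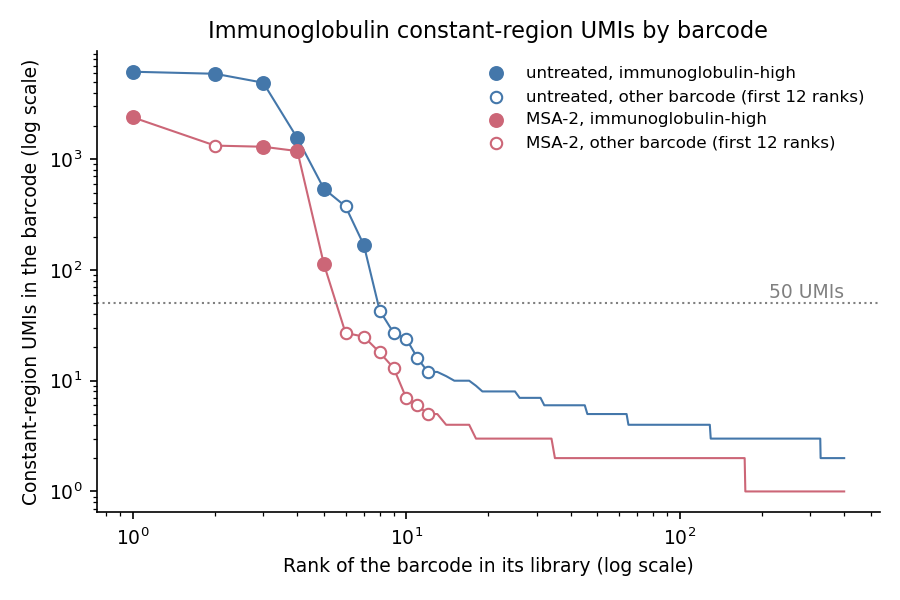
Constant-region UMIs of each barcode against its rank in the library, both on log axes, with filled points for immunoglobulin-high and open points for other barcodes among the first 12 ranks. Counts drop steeply after the first few barcodes, and 10 untreated and 7 MSA-2 barcodes had at least 20.

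**Figure D2:**
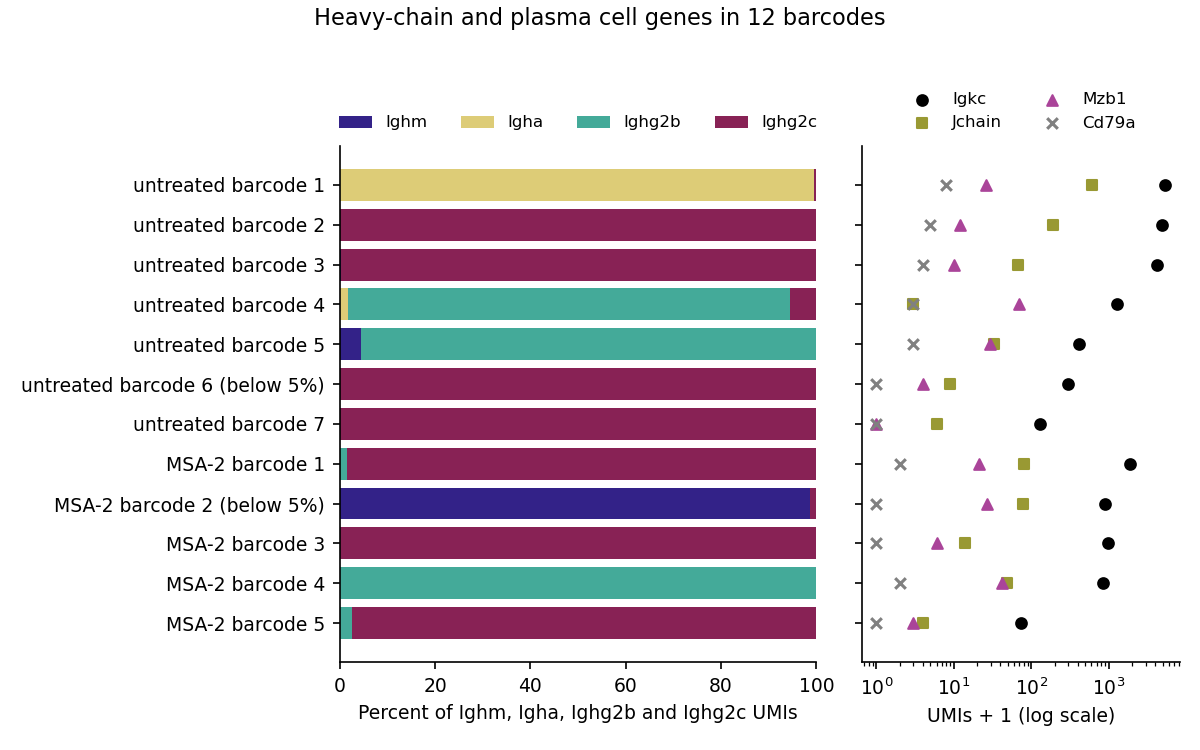
The 12 barcodes with at least 50 constant-region UMIs, with the percentage of each heavy chain gene among the Ighm, Igha, Ighg2b and Ighg2c UMIs at left and the UMIs of Igkc, Jchain, Mzb1 and Cd79a plus 1 on a log axis at right. A single isotype dominates every bar, Igha in untreated barcode 1 and Ighm in MSA-2 barcode 2, which lies below the 5% limit.

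The leading V segments were mostly different in the barcodes with the most constant-region UMIs. V segments lie far from the 3′ end that such libraries read, and the libraries held 122 and 128 Igkv and 49 and 46 Ighv UMIs. The IgA barcode had 34 Igkv UMIs, all of Igkv6-15, and 7 UMIs of Ighv1-52. The larger untreated IgG2c barcodes, of ranks 2 and 3, had 24 UMIs of Igkv1-135 with 18 of Ighv1-19 and 18 of Igkv5-48 with 7 of Ighv1-81. The 2 smaller IgG2c barcodes, with 38 and 77 Ighg2c UMIs, the latter just outside the threshold, both had Igkv3-5 as their leading kappa segment, with 2 and 3 UMIs. In MSA-2 tumors, the first barcode had 48 UMIs of Igkv3-7 and 30 of Ighv5-16, the IgM barcode 12 of Igkv10-96, and the second IgG2c barcode 26 of Igkv12-44 and 3 of Ighv8-12. The IgG2b barcodes with the most UMIs in each library both had Igkv3-12 as their leading segment, with 11 of 21 Igkv UMIs in untreated tumors and 7 UMIs after MSA-2. Iglv1, a lambda segment, had 48, 45 and 25 UMIs in the first 3 untreated barcodes, although their light chain constant-region UMIs were nearly all Igkc.

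The label of plasma cells was compared with genes that the choice of barcodes did not name. The list of antibody-secreting cell genes has 15 members, of which the 6 untreated barcodes had 12, 13, 11, 10, 4 and 3 with at least 1 UMI. The 4 MSA-2 barcodes had 12, 10, 11 and 7, and the IgM barcode had 13. Some of these genes are expressed widely. An epithelial-like and an NK/T-like MSA-2 barcode with 25 and 7 constant-region UMIs had 7 and 6 of them. The epithelial-like barcode also had 4 of 8 B cell markers, and the NK/T-like one had 0. Sdc1 and Tnfrsf17, surface proteins that define plasma cells, were rarely seen. Sdc1 had UMIs in 2 of the 6 untreated barcodes and in none of the 4 after MSA-2, and Tnfrsf17 had 0 in all 10, which were too few to show low levels. Of the B cell genes, Ms4a1, Cd22 and Pax5 were also at 0 in the 10 barcodes, whereas Cd79b had 14 UMIs in 5 of the 6 untreated and 3 UMIs in 2 of the 4 MSA-2 barcodes, and Cd79a 18 in 5 and 2 in 2. The untreated barcode of rank 4 had 4 of 8 B cell markers. The barcodes with the fewest constant-region UMIs had the fewest genes of the plasma cell list, but they were also the shallowest. They had 825 and 3142 UMIs in all in untreated tumors and 1805 after MSA-2. Part of the B cell genes was detected beside the plasma cell list.

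Outside the immunoglobulin genes, and among the 444 features with at least 20 UMIs in the 6 untreated barcodes, the features with the highest log2 ratio of CPM in these barcodes over all other untreated barcodes were led by members, with Jchain at 12.88 and Mzb1 at 10.52. Gm30211, which contains Igkc, followed at 8.86. Next came Reg3g at 7.93 and C1qtnf3 at 7.47, with UMIs in 1 barcode each, and Ly6d, a surface protein of the B lineage and of epithelia, at 7.23 in 5 barcodes. Cd79a, with 18 UMIs and so below that minimum, was at 7.32. Several of the others, among them Mmp3, Thbs4 and Smoc2, also lay in a single barcode. Of the antibody-secreting cell genes, Pou2af1, a B cell transcriptional coactivator, was at 6.90, Derl3, which acts in the disposal of misfolded proteins, at 5.95 from 5 UMIs in 2 barcodes, and Irf4, a transcription factor of plasma cell differentiation, at 5.39, with 10 of its 13 UMIs in 1 barcode. Eaf2 was at 5.20, Sec11c, a subunit of the signal peptidase, at 3.59, and Xbp1, a transcription factor of the secretory program, at 3.13. The other 9 genes of the list lay between -0.04 for Tnfrsf17 and 2.01 for Sdc1, with Prdm1 at 0.53 from 1 UMI and Ssr4 at 1.78. In the 4 MSA-2 barcodes Jchain at 10.95 and Mzb1 at 10.19 again came first, followed by Pou2af1 at 8.65.

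The members did not all follow these barcodes. In untreated tumors the immunoglobulin-high barcodes held 85.1% of Igkc, 84.3% of Ighg2c, 84.9% of Ighg2b, 76.7% of Igha, 89.4% of Jchain and 75.1% of Mzb1 UMIs. They held only 18 of the 106 Cd79a UMIs and 7 of the 2248 Ighm UMIs (0.311%). In MSA-2 tumors they held 64.2% of Igkc, 81.4% of Ighg2c, 84.3% of Ighg2b, 54.8% of Jchain, 55.3% of Mzb1, 3.12% of Cd79a and none of the Ighm and Igha UMIs. The barcodes were chosen by their constant-region UMIs, so the shares of the constant-region genes follow in part from that choice, and only Jchain, Mzb1 and Cd79a took no part in it. Of these, Jchain and Mzb1 lay mainly in the immunoglobulin-high barcodes and Cd79a did not. After MSA-2, most Ighm lay in the IgM barcode outside the threshold.

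Cd79a had 106 UMIs in 72 barcodes of untreated tumors and 64 in 56 barcodes after MSA-2. Barcodes with at least 3 of 8 B cell markers numbered 5 (0.0348%, 0.0113 to 0.0811%) and 2 (0.0137%, 0.00166 to 0.0494%), and they held 21 and 9 of the Cd79a UMIs. Most Cd79a UMIs lay in epithelial-like barcodes, the class of the tumor cells, with 58 in untreated tumors and 47 after MSA-2, at 0.00882 and 0.00669 UMIs per barcode. This class is deep, and its level was 0.392 and 0.288 CPM, not above the 0.535 and 0.313 CPM over all barcodes. Of the 5 untreated barcodes with B cell markers, 1 was immunoglobulin-high and 3 were called doublets. Barcodes with several B cell markers were thus few in both libraries, and Cd79a was near the limit of detection.

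Outside the immunoglobulin-high barcodes, constant-region UMIs were spread thinly over the libraries. Over all barcodes, 3776 in untreated tumors (26.2%) and 1516 after MSA-2 (10.4%) had at least 1. Their level per barcode was 0.403 and 0.214 outside the immunoglobulin-high barcodes, a log2 ratio of -0.92 (-0.98 to -0.85). The MSA-2 value includes the IgM barcode. With a minimum of 1% of UMIs, which counts that barcode as immunoglobulin-high, the ratio was -1.62 (-1.70 to -1.54). Among filtered barcodes not called as doublets it was -1.69 (-1.77 to -1.61). A limit of under 20 constant-region UMIs was chosen after seeing the data. Over the barcodes below it, Igkc was at 0.172 and 0.0810 UMIs per barcode, a log2 ratio of -1.08 (-1.18 to -0.98). Over the same barcodes Ighm was at 0.155 and 0.0187, a log2 ratio of -3.05 (-3.24 to -2.87). For Ighg2b the ratio was 0.05, for Ighg2c -0.58, for Igha -3.17, for Jchain -1.35, for Mzb1 -0.89 and for Cd79a -0.54. Over all barcodes outside the immunoglobulin-high ones, the IgM barcode included, Jchain was at 0.09 (-0.30 to 0.48), Mzb1 at 0.20 (-0.38 to 0.80), Igkc at -0.45 and Ighg2c at -0.90, so the direction of Jchain and Mzb1 depended on that barcode. Ighm and Igha differed most between the libraries in both sets.

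**Figure D3:**
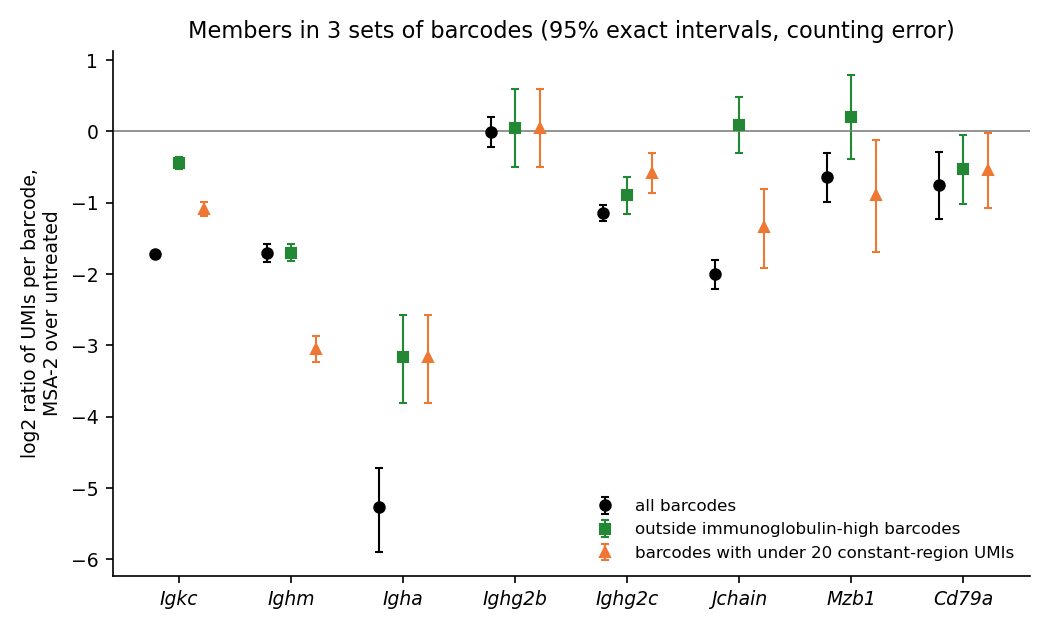
log2 ratio of UMIs per barcode, MSA-2 over untreated, for the 8 members with UMIs, over all barcodes (circles), outside the immunoglobulin-high barcodes (squares) and over barcodes with under 20 constant-region UMIs (triangles), with exact 95% intervals of counting error. Ighg2b lies near 0 in all 3 sets, Igha is lowest over all barcodes, and Ighm is at -1.70 outside the immunoglobulin-high barcodes and at -3.05 in the last set.

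Igkc was found in every large class. In untreated tumors it was at 0.300 UMIs per barcode in epithelial-like, 0.135 in fibroblast-like, 0.101 in NK/T-like and 0.0834 in myeloid-like barcodes. These are classes of cells that are not known to make antibody, and their depths differ, with median UMI counts of 20295 in epithelial-like, 11490.5 in fibroblast-like, 3292 in NK/T-like and 5524 in myeloid-like barcodes. With each barcode thinned to 1500 UMIs, the expected share with an Igkc UMI, computed without a random draw, was 1.77% of epithelial-like (1.47 to 2.12%), 3.07% of NK/T-like (2.23 to 4.08%) and 2.18% of myeloid-like barcodes (1.73 to 2.69%), with 23, 81 and 36 shallower barcodes left out. The shares before thinning were 21.4%, 6.37% and 7.62%. The order of the unthinned shares thus turned at equal depth, where the NK/T-like share was the highest and its interval lay above the epithelial-like one. The part of free RNA in these UMIs was not tested.

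In MSA-2 tumors Igkc was at 0.119 UMIs per barcode in epithelial-like barcodes, with 838 UMIs against 1975 in untreated tumors and a log2 ratio of -1.33. The untreated value falls to 0.255 and the MSA-2 value to 0.117 without barcodes of 20 or more constant-region UMIs. With called doublets kept in the class, the ratio was -0.32 (-0.41 to -0.23). In fibroblast-like barcodes Igkc was at 0.0858 and in myeloid-like barcodes at 0.0345. In NK/T-like barcodes it was at 0.101 in untreated and 0.140 in MSA-2 tumors, which were 25.7 and 25.6 CPM of that class, so the direction there depended on depth. In the unnamed cluster led by Il12b, Ccl17 and Pkib, Igkc was at 0.249 UMIs per barcode without treatment and 0.587 after MSA-2. These were 92 and 27 UMIs, a log2 ratio of 1.24 (0.56 to 1.87). Most of the 27 lay in MSA-2 barcodes of 11 and 9 Igkc UMIs, with 6 and 2 of 8 B cell markers. A single untreated barcode, with 2 of these markers, held 23 of the 92. An Igkc UMI was found in 12.7% of the cluster's barcodes without treatment and 13.0% after MSA-2. No direction is therefore read for this cluster. In the NK/T-like cluster led by Cd3g, Trbc2 and Ifng, Igkc had 38 UMIs at 0.0784 per barcode without treatment and 20 at 0.313 after MSA-2. The log2 ratio there was 2.0 (1.14 to 2.81). The 20 UMIs lay in 8 of 64 barcodes, 1 of which had 6. An Igkc UMI was found in 5.15% of the untreated (3.36 to 7.52%) and 12.5% of the MSA-2 barcodes (5.55 to 23.2%). These intervals overlap, so no direction is read for this cluster either.

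The isotype makeup of the spread UMIs was compared with that of the barcodes rich in constant-region UMIs. In untreated epithelial-like barcodes with under 20 such UMIs, Ighg2c was at 11.9 UMIs per 100 Igkc UMIs (10.2 to 13.8), and in the 10 barcodes with at least 20 it was at 11.7 (11.1 to 12.2). For Ighg2b the values were 2.56 (1.85 to 3.47) and 1.97 (1.76 to 2.20). The IgG isotypes thus stood in nearly the same proportion to Igkc in both sets. Igha was at 7.87 (6.54 to 9.40) and 4.58 (4.25 to 4.93), higher in the spread UMIs. Ighm was at 14.7 (12.8 to 16.8) and 0.151 (0.0976 to 0.223), so the pooled proportion of Ighm differed most between the sets. Among the 10 barcodes, the ones ranked 8 and 9 had 10 Ighm beside 29 Igkc UMIs and 8 beside 9, and the first 3 barcodes gave most of the pooled Igkc.

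In MSA-2 tumors Ighg2c was at 15.2 per 100 Igkc UMIs (12.5 to 18.3) in the spread UMIs and at 17.7 (16.4 to 19.0) in the 7 rich barcodes. Ighg2b was at 5.70 (4.16 to 7.66) and 6.96 (6.20 to 7.79), and Ighm at 10.6 (8.37 to 13.2) and 9.10 (8.23 to 10.1), where 410 of the 429 Ighm UMIs of the rich barcodes lay in the IgM barcode. Igha was at 2.06 (1.20 to 3.32) in the spread UMIs, whereas the rich barcodes had 0 Igha UMIs beside 4712 Igkc UMIs. Relative to Igkc, Ighg2b was higher in the MSA-2 than in the untreated library in both sets, with intervals apart. For Ighg2c the intervals of the libraries were apart in the rich barcodes and overlapped in the spread UMIs. A single barcode held 319 of the 328 Ighg2b UMIs of the rich MSA-2 barcodes.

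**Figure D4:**
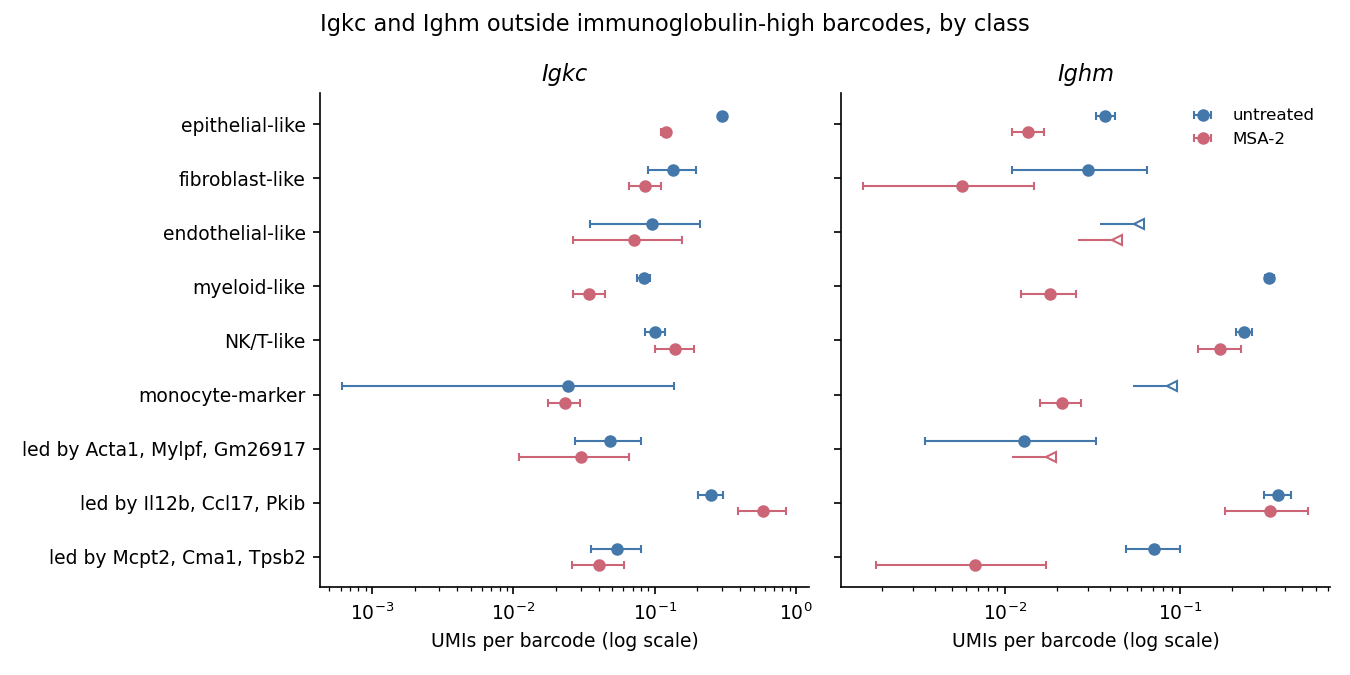
Igkc and Ighm UMIs per barcode by class of barcodes in untreated and MSA-2 tumors, on a log axis with exact 95% intervals, where open triangles mark the upper limit of classes with 0 UMIs. Without adjustment for depth, Igkc is highest in the epithelial-like class among the large classes of untreated tumors, at 0.300. Ighm of untreated tumors is at 0.326 in myeloid-like and 0.0376 in epithelial-like barcodes.

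Ighm had a distribution of its own. In untreated tumors it was at 0.326 UMIs per barcode in myeloid-like and 0.235 in NK/T-like barcodes, and at 0.0376 in epithelial-like barcodes, although the latter were the deepest. At least 1 Ighm UMI was found in 21.5% of myeloid-like (20.2 to 22.8%), 15.5% of NK/T-like (13.7 to 17.4%) and 3.32% of epithelial-like barcodes (2.90 to 3.78%). At 1500 UMIs the expected shares were 7.48% (6.66 to 8.37%), 6.96% (5.68 to 8.38%) and 0.270% (0.163 to 0.434%). Ighm of the myeloid-like and NK/T-like classes therefore lay above the share of the epithelial-like class at equal depth.

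In MSA-2 tumors the myeloid-like class had 32 Ighm UMIs in 1768 barcodes, against 1227 in 3766 barcodes of untreated tumors. The level was 0.0181 against 0.326 UMIs per barcode, a log2 ratio of -4.17 (-4.72 to -3.66). At 1500 UMIs the expected share of myeloid-like barcodes with a UMI was 0.576% (0.278 to 1.06%), and that of epithelial-like barcodes 0.0888% (0.0314 to 0.186%). A random thinning gave 0.347% and 0.0998%, so these low shares rest on few barcodes and no difference between them is read. With 1 CPM added the log2 ratio was -3.59, and 2 of 11784 features of the class with at least 50 UMIs were lower. A ratio of -3 or lower was seen for 0.0933% of these features.

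In NK/T-like barcodes Ighm had 357 UMIs in untreated tumors and 51 after MSA-2, at 0.235 and 0.170 UMIs per barcode, a log2 ratio of -0.46 (-0.92 to -0.04). The direction turned at a lower clustering resolution of 0.5, where the ratio was 0.22, so no direction is read for this class. Endothelial-like barcodes, 63 and 84, had no Ighm UMI. A class labeled monocyte-marker after its marker list had S100a9, S100a8, Retnlg and G0s2 among its leading genes, and the label does not identify its cells as monocytes. With 41 untreated and 2651 MSA-2 barcodes, it had 0 and 0.0211 Ighm UMIs per barcode and could not be compared.

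The untreated Ighm UMIs of the myeloid-like class lay mainly in its macrophage-marker clusters. The cluster led by Apoe, Ms4a7 and C1qc had 793 UMIs at 0.412 per barcode in untreated and 10 at 0.0181 in MSA-2 tumors. A smaller cluster with C1qc had 188 UMIs at 0.709 in untreated and 1 at 0.0417 in MSA-2 tumors. Both clusters were lower in the MSA-2 library, and the difference of the class was thus present within each of them.

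Of the NK/T-like clusters, the one led by the granzyme genes Gzmc, Gzma and Gzmd had the most Ighm, with 218 UMIs at 0.835 per barcode in untreated and 28 at 0.231 in MSA-2 tumors. An Ighm UMI was found in 48.7% of its untreated and 19.0% of its MSA-2 barcodes, and the expected shares at 1500 UMIs were 18.8% and 4.84%. The cluster also held Igha, with 38 UMIs in untreated tumors and 1 after MSA-2, or 0.146 and 0.00826 per barcode. Within the untreated cluster an Igha UMI was found in 17.3% of barcodes with Ighm and 8.21% of barcodes without, with median depths of 6109 and 4231.5 UMIs. In an unnamed cluster led by Il12b, Ccl17 and Pkib, Ighm was at 0.363 UMIs per barcode in untreated (134 UMIs) and 0.326 in MSA-2 tumors (15 UMIs). Of these 15 UMIs, 10 lay in a single barcode with 6 of 8 B cell markers, and without it the MSA-2 level was 0.111, a log2 ratio of -1.71 (-3.35 to -0.45), an alternative chosen after seeing the data. In the NK/T-like cluster led by Cd3g, Trbc2 and Ifng there were 14 and 5 UMIs, at 0.0289 and 0.0781 per barcode, a log2 ratio of 1.44 (-0.39 to 2.99) that was within counting error.

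**Figure D5:**
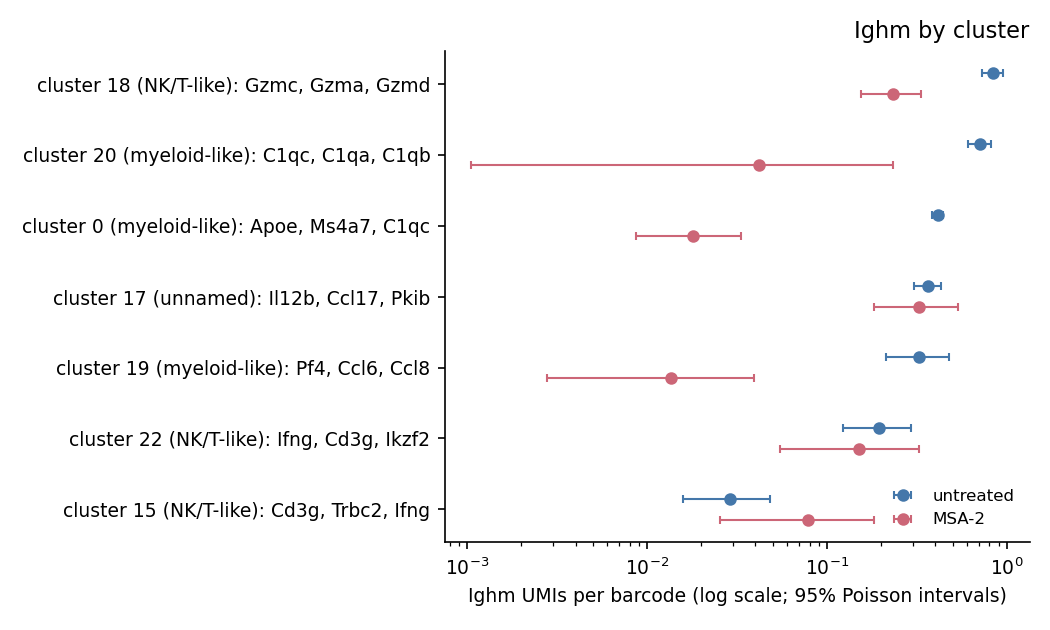
Ighm UMIs per barcode in 3 myeloid-like clusters, 3 NK/T-like clusters and the unnamed cluster led by Il12b for untreated and MSA-2 tumors, on a log axis with exact 95% intervals. The cluster led by Gzmc, Gzma and Gzmd is highest in untreated tumors at 0.835, and the cluster led by Apoe, Ms4a7 and C1qc stands at 0.412 in untreated and 0.0181 in MSA-2 tumors.

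The myeloid-like barcodes with Ighm carried little else of an antibody. Of the 809 untreated ones, 91 had 3 or more Ighm UMIs, and the highest had 9. An Igkc UMI was found in 8.28% of them and in 7.44% of myeloid-like barcodes without Ighm, so Igkc was about as frequent with Ighm as without. An Ighv and an Igkv UMI were each found in 1 of the 809, and Cd79a in 2. Cd79b, the partner of Cd79a in the B cell receptor, was found in 15.6% of the 809 and 9.20% of the others, with median depths of 5981 and 5368 UMIs. Cd79b of the myeloid-like class had 475 UMIs in untreated tumors and 34 after MSA-2, at 0.126 and 0.0192 per barcode, a log2 ratio of -2.71.

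Other genes of the pathway were taken from lists, and given only as counts of genes with at least 50 UMIs over both libraries whose log2 ratio over all barcodes, with 1 CPM added, was -1 or lower or 1 or higher. Of 13 antibody-secreting cell genes, 1 was lower, which was Irf4 with 604 UMIs in untreated tumors and 169 after MSA-2, and none was higher. Of all features 3.27% passed the lower and 3.33% the upper limit. Of 9 B cell genes, 2 were lower, Cd79b with 618 and 53 UMIs and Ly6d with 552 and 39, and 1 was higher, Pax5, a B cell transcription factor, with 24 and 266. The medians were -0.17 and -0.13, near the 0.00318 of all features. Of 4 germinal center genes none passed either limit. Most genes of these lists thus lay between the limits, the counts are too small to set against the shares of all features, and other cell types also express many of the genes.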

How the data were processed

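Single-cell 3′ libraries of pooled untreated and MSA-2–treated tumors were analysed. The values are raw UMI counts as deposited, not normalized, and cover the barcodes that the authors' quality filter left. The submitters' processing notes name Cell Ranger 7.0.0, Seurat 4.3.0 and mm10, and the matrix header names Cell Ranger 7.0.1. How reads shared by paralogs were counted is not given in the sources used here.

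UMIs of every deposited barcode were summed per gene and scaled to CPM. Exact intervals at 95% (Poisson, Clopper-Pearson, conditional binomial) were taken with scipy 1.17.1 in Python 3.11.15. A floor of 3 counts was printed for a library sum of 0, and it lies below the exact upper limit of a 0. With 1 library per condition no p-value or standard error was computed. For classes, barcodes under 500 genes or over 20% mitochondrial UMIs were dropped (leaving 14039 and 13963), doublets called with Scrublet in scanpy 1.11.5 were removed (705 and 570), and cells were integrated over 30 dimensions and clustered at resolution 1 with Seurat 5.3.0 in R 4.3.3, which gave 25 clusters. Clusters were named from marker lists. One naming criterion was tightened once the clusters were known. Shares at 1500 UMIs per barcode are hypergeometric expectations, with intervals at the rounded number of barcodes, a computation chosen after seeing the data in place of random draws.

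The members and lists were chosen with earlier results of these data known. The genes named were the members, the other constant-region genes, the lists of antibody-secreting cell, B cell, germinal center, survival and recruitment and immunoglobulin receptor genes, the 15 features most specific to immunoglobulin-high barcodes, and the leading V segments. Not every gene that this rule selects is printed, and some genes and clusters are not reported here. Coordinates and sequences came from GRCm38 with GENCODE M21, which is the build of mm10. The ratio computation was tested on simulated data. Alternatives covered the threshold, filter, doublets, resolution, integration, scaling (edgeR 4.0.16 TMM factors) and added CPM.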

Additional observations from a re-analysis of the deposited data

How the results depend on the processing

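Of 72 alternative values of single members, 46 moved by less than counting error, 26 moved further and none changed direction. Of 65 alternatives of the other results, 42 stayed within their limit, 22 moved further and 1 reversed. That limit was counting error for ratios and shares. For the count of members and the numbers of immunoglobulin-high barcodes it was a fixed fold range around the main value. The log2 ratio of the constant-region sum (-1.67) was -2.69 without called doublets and barcodes failing the filter. That value includes 1 immunoglobulin-high barcode of the untreated library and 0 of the MSA-2 library. The ratio was -1.77 without the highest barcode of each library and -1.46 with 10 CPM added. With 10 CPM added, the number of members at -1 or lower was 1 in place of 5. The IgM barcode of the MSA-2 library decided several values: without it, an alternative chosen after seeing the data, Ighm was at -2.99, Jchain at -2.54, Igkc at -1.97 and Mzb1 at -1.01. Without the highest barcode of each library Igha was at -3.21, Ighg2c at -2.05 and Jchain at -1.22. The immunoglobulin-high barcodes numbered 3 and 1 at a minimum of 20% of UMIs, and 1 and 0 among filtered barcodes not called as doublets. Their share of constant-region UMIs in untreated tumors was 78.3% at a minimum of 1%, 48.9% at 20%, 76.2% with at least 200 UMIs and 48.0% among filtered barcodes. In MSA-2 tumors it was 77.9%, 16.0%, 60.1% and 0%, respectively. The ratio per barcode outside them (-0.92) was -1.62 at a minimum of 1% and -1.69 among filtered barcodes. With doublets kept, Ighm of the myeloid-like class was at -3.64 and Igkc of the epithelial-like class at -0.32, and the latter was at -1.12 without barcodes of at least 20 constant-region UMIs, also chosen after seeing the data. Ighm of the NK/T-like class was at 0.22 at resolution 0.5 and at -0.95 in CPM of the class. Causes of these shifts were not tested where the alternative's own construction does not show them. No paired analysis was possible because each condition has 1 library. The low sums of Mzb1 and Cd79a limit what can be seen of those genes by class.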

Other observations

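Genes that recruit B cells or support plasma cells differed between the libraries in both directions over all barcodes. Of 8 such genes with at least 50 UMIs, 3 had a log2 ratio of 1 or higher with 1 CPM added (3.33% of all features) and 1 of -1 or lower (3.27%). Cxcl13, the chemokine that draws B cells into follicles, had 275 UMIs in untreated tumors and 8572 after MSA-2, a log2 ratio of 4.17 with 1 CPM added. Cxcl12, a chemokine of the plasma cell niche, had 1171 and 6361 UMIs (2.22), and Il6, a cytokine that supports plasma cells, had 1728 and 15935 (3.02). Tnfsf13b, which encodes the B cell survival factor BAFF, had 1900 and 511 UMIs (-1.60). These values come from 1 library per condition and from cells of all classes.

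Of 7 receptors of antibody constant regions with at least 50 UMIs, 2 had a log2 ratio of -1 or lower with 1 CPM added (3.27% of all features) and none of 1 or higher (3.33%), with a median of -0.67 beside 0.00318 over all features. Fcgr2b, the inhibitory receptor of IgG, had 12310 UMIs in untreated tumors and 3740 after MSA-2 (-1.71). Fcer1g, the signaling chain shared by several of these receptors, had 130016 and 56806 UMIs (-1.24). The myeloid-like class had 3766 barcodes in untreated tumors and 1768 after MSA-2, and its part in these values was not tested.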
